A study of Mus musculus with 16 samples.

Results

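The 10 genes described here belong to the circadian clock and its direct output, and their transcripts were measured in tumours of H295R, a human adrenocortical carcinoma line, implanted in SCID mice, animals without working T and B lymphocytes. They were taken as the array probes whose identifier equals a listed human RefSeq accession, and the gene names follow that list. Of the 10 listed genes, 9 have a probe under their accession, with 12 probes in all, among 29094 identifiers on the array; the accession listed for ARNTL (NM_001178) has none, so ARNTL was not analysed here. All 9 passed the filter on dim probes, which left 20216 transcripts to test. The genes are DBP (NM_001352), TEF (NM_003216), HLF (NM_002126), PER1 (NM_002616), PER2 (NM_022817), PER3 (NM_016831), CRY1 (NM_004075), NR1D1 (NM_021724) and NR1D2 (NM_005126). The list was chosen by a readout of these arrays, since DBP ranked first among transcripts higher under 9-cisRA than in control, so the 9-cisRA against control values below describe the choice and are not tests.

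All tumours came from male SCID mice inoculated with H295R and dosed by mouth for 28 days. The groups were mitotane (an adrenolytic drug used for this cancer), 9-cisRA (9-cis retinoic acid, a vitamin A derivative and ligand of the receptors RAR and RXR), combined (mitotane and 9-cisRA together) and control (corn oil). RNA was read on 1-colour human arrays, 4 per group on 4 slides, each slide holding 1 array of every group. Scanner values were used for 15 arrays, which leaves 3 for combined and 4 for each other group. The remaining array, combined replicate 3, was read in the authors' value table. The animals' age, and the hour of day at which tumours were taken, are not given in the sources used here. Nothing in the labels ties each array to its own mouse, so the p-values reflect spread between these samples that may be technical. GEO lists mouse as the organism although line and array are human, and a tumour also holds host cells; fewer cells of a kind and less RNA per cell cannot be told apart. The label of the tumour could not be set against adrenal marker genes, because the files name no gene.

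In mammals the clock is a loop in which the activators CLOCK and ARNTL (also called BMAL1) switch on the period (PER) and cryptochrome (CRY) genes, whose proteins then repress those activators. The same activators drive the nuclear receptors NR1D1 and NR1D2 (REV-ERB alpha and beta), which repress ARNTL in turn, and DBP, a transcription factor of the PAR bZIP family. DBP, TEF and HLF carry the daily rhythm to output genes by binding D-box elements, and the adrenal cortex is a tissue with a well known daily rhythm of steroid output.

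Signals are given as log2 of the background-subtracted intensity minus the 75th percentile of the array, so 0 is the level of that percentile and 1 unit is a doubling. That percentile lay at 551.5 to 1061 intensity units on 14 arrays, and at 224.2 on the remaining one, control replicate 4. Across transcripts, that array's correlation with the others had a median of 0.874, where each of the rest reached 0.977 to 0.99. On combined replicate 4, 57.9% of probes were well above background and on control replicate 4, 61.6%, while the other arrays had 69.4% to 75.9%. Results that rest on control replicate 4 are given with and without it. Every 9-cisRA array lay at position 4 of its slide, so that treatment and the place on the slide cannot be told apart.

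DBP was high with either agent alone and lower with both. Its log2 signals were 0.98, 1.07, 0.94 and 0.67 on the mitotane arrays, 0.99, 1.03, 1.21 and 0.76 on the 9-cisRA arrays and 0.63, 0.31 and 0.70 on the combined arrays, against 0.06, 0.72, 0.22 and -0.01 on the control arrays. Each 9-cisRA array lay above each control array, as 1.67% of all transcripts did, with control replicate 2 closest, and the combined arrays overlapped the control arrays. The mean was 0.92 ± 0.17 under mitotane, 1.00 ± 0.18 under 9-cisRA, 0.55 ± 0.21 under combined treatment and 0.25 ± 0.33 in control (SD, n = 4, 4, 3 and 4). The means of 9-cisRA and mitotane lay within 1 SD of each other, and that of combined within the SD of control. For the contrast that chose it, 9-cisRA against control, the log2 change was 0.75 ± 0.18 (SE), a 1.68-fold difference, which was 0.66 without control replicate 4. By unadjusted p it stood at place 4 among all transcripts and at place 1 among those higher under 9-cisRA; the next higher transcript, NM_183373, had a log2 change of 1.19. Against the same control arrays, DBP differed by 0.67 ± 0.18 under mitotane and by 0.30 ± 0.19 under combined treatment, and these values share the low controls by which DBP was picked. With limma's array weights, which give control replicate 2 the highest weight, the changes against control were 0.32 for mitotane, 0.31 for 9-cisRA and -0.07 for combined treatment. Combined minus 9-cisRA gave -0.45 ± 0.19 with no overlap of the arrays (4.71% of all transcripts were lower in this way), a value that shares the high 9-cisRA arrays.

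Combined against mitotane asks what 9-cisRA added to mitotane, and neither of its group means holds any of the 8 arrays by which DBP was chosen. Its error and p do draw on those arrays, through the spread that all 4 groups share in the fit. DBP was 1.29-fold lower in combined tumours, with a log2 change of -0.37 ± 0.19 (SE) and a 95% confidence interval of -0.77 to 0.04, and did not pass the test (adjusted p = 1, limma). Fitted on the combined and mitotane arrays alone, the log2 change is the same -0.37 by design (adjusted p = 0.495, limma). Within slides the difference was -0.35 on slide 1, -0.76 on slide 2 and 0.03 on slide 4, and with the slide as a block the log2 change was -0.35. Over the 25 alternative settings the log2 change was -0.45 to -0.25, with adjusted p from 0.303 to 1 (limma). Settings that leave both group means as they are, such as those without a control or 9-cisRA array, return -0.37 by design. In the authors' value table, combined replicate 3 had a centred DBP value of -0.07, below all 4 mitotane arrays, which ran from -0.04 to 0.37.

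TEF and HLF, which bind the same D-box elements as DBP, had their highest group means under single agents once 1 array is set aside. For TEF, the 9-cisRA arrays other than replicate 1 lay within the span of the combined arrays. TEF read -2.19, -1.93, -1.83 and -2.12 on the mitotane arrays, -2.05, -2.51, -2.52 and -2.49 on the 9-cisRA arrays and -2.43, -2.66 and -2.61 on the combined arrays, against -2.99, -2.56, -2.36 and 8.26 on the control arrays. Control replicate 4 stood alone: its TEF spot had an intensity of 68666, against 108.1 to 238.5 on the other 14 arrays, and was neither saturated nor marked as an outlier. The probe has 1 spot per array, and 23 of the 20216 transcripts, TEF included, deviated at least as far from the other controls on that array. This value sets the TEF mean of control to 0.09 ± 5.45 (SD, n = 4), against -2.63 ± 0.32 (n = 3) without it, and it widens the error of TEF in every comparison through the shared estimate of the spread.

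With all 15 arrays the log2 change of TEF was -2.11 ± 1.79 (SE) for mitotane against control (adjusted p = 0.72, limma). Without control replicate 4 it was 0.61 ± 0.16 for mitotane, a 1.53-fold difference (adjusted p = 0.616, limma), 0.24 ± 0.16 for 9-cisRA and 0.07 ± 0.18 for combined treatment. The sign of TEF against control therefore rests on 1 spot. Combined minus mitotane was -0.54, with every combined array below every mitotane array, as for 4.5% of all transcripts. Its SE was 1.93 with all arrays and 0.16 without control replicate 4 (adjusted p = 1 and adjusted p = 0.253, limma).

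HLF read -2.64, -2.80, -2.79 and -3.63 on the mitotane arrays, -2.46, -3.13, -2.78 and -2.72 on the 9-cisRA arrays and -3.18, -3.33 and -3.48 on the combined arrays, against -3.81, -3.18, -3.42 and -2.93 on the control arrays. The combined arrays lay below all 9-cisRA arrays, as for 4.71% of all transcripts, and mitotane replicate 4 lay apart from its group. HLF differed by -0.56 ± 0.26 (SE) between combined and 9-cisRA (adjusted p = 0.518, limma), and was lower in combined on each of the 3 slides that hold both. Its log2 change against control was 0.37 ± 0.24 for mitotane (adjusted p = 0.713, limma), 0.56 ± 0.24 for 9-cisRA and 0.01 ± 0.26 for combined treatment (adjusted p = 0.992, limma), and the last turned sign under 6 of 25 settings.

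**Figure D1:**
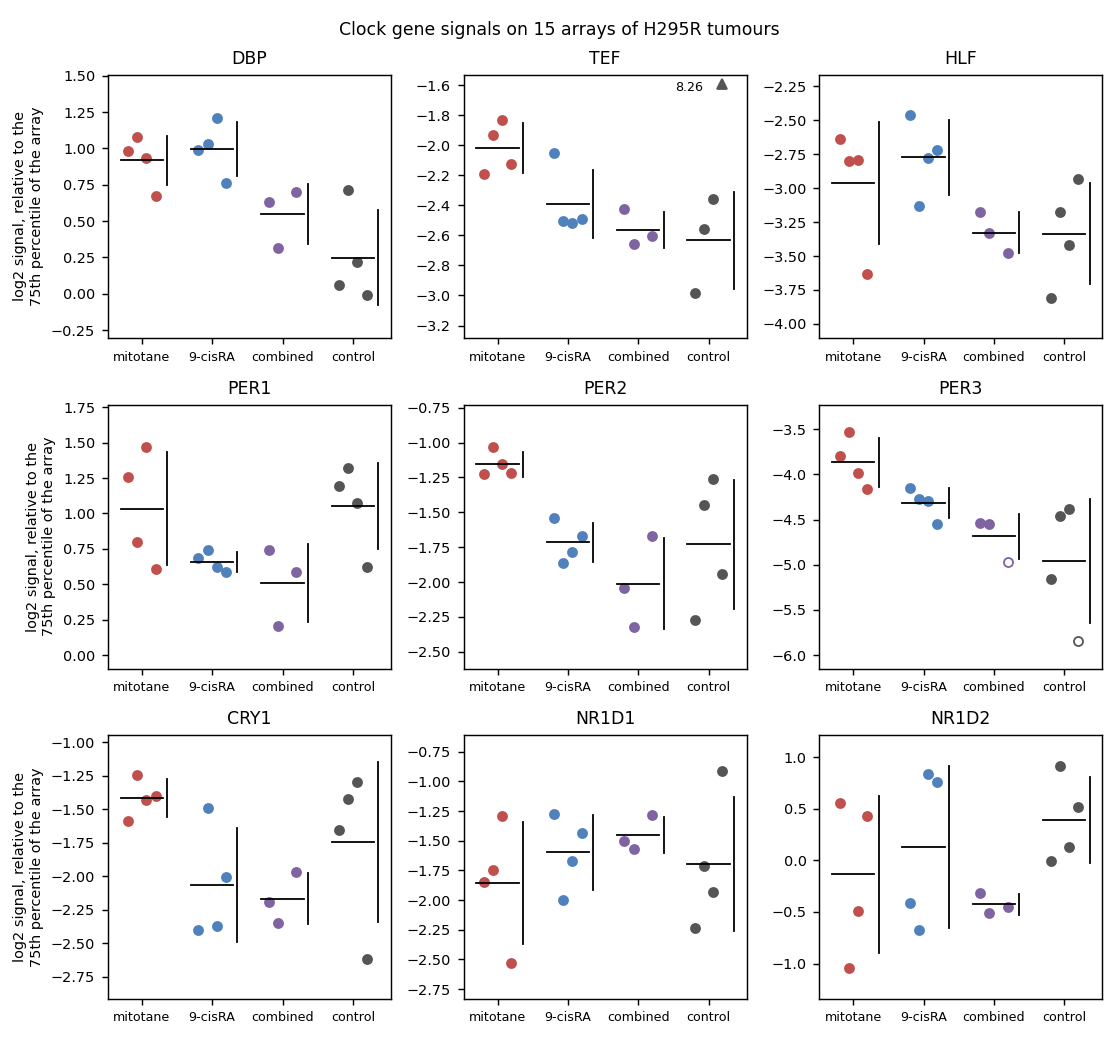
Log2 signal of the 9 clock genes relative to the 75th percentile of the array (y axis, one scale per gene), by group (x axis). Points are arrays in replicate order, open where the probe was not well above background, horizontal lines are group means and vertical lines 1 SD. The triangle at the top of the TEF panel is control replicate 4 at 8.26, off the scale and left out of the TEF mean and SD drawn. PER2 and PER3 of the mitotane arrays lie above those of the combined arrays, and DBP of the 9-cisRA arrays above that of the control arrays.

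Among the period genes, PER2 and PER3 were highest under mitotane. PER2 read -1.23, -1.03, -1.15 and -1.22 on the mitotane arrays, -1.54, -1.86, -1.78 and -1.67 on the 9-cisRA arrays and -2.04, -2.32 and -1.67 on the combined arrays, against -2.27, -1.45, -1.26 and -1.94 on the control arrays. The mitotane arrays lay close together and above every control and combined array, the lowest at -1.23 beside -1.26 on control replicate 3. Of all transcripts, 3.56% had every mitotane array above every control array, and 4.5% above every combined array. The log2 change was 0.57 ± 0.21 (SE) for mitotane against control (adjusted p = 0.713, limma) and -0.85 ± 0.22 for combined against mitotane, a 1.81-fold lower level (adjusted p = 0.85, limma). Combined minus mitotane was negative on each of 3 slides, at -0.81, -1.29 and -0.45.

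A second PER2 probe, not used in the tests, was dimmer. This probe read -4.52 to -4.35 on the mitotane arrays, -5.30 to -4.93 on the 9-cisRA arrays and -6.02 to -4.93 on the control arrays. On combined replicate 4 it read -1.62, against -5.66 and -5.79 on the other combined arrays. With that array its combined minus mitotane difference was 0.11, and without it -1.26, so the second probe takes the sign of the first only without that array.

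PER3 was dim, with intensities of 3.9 to 76.5, and was well above background on 13 of 15 arrays, combined replicate 4 and control replicate 4 being the others. PER3 thus passed the filter on dim probes only through the mitotane and 9-cisRA arrays, the groups with its highest means. It read -3.79, -3.53, -3.98 and -4.16 on the mitotane arrays, -4.15, -4.27, -4.29 and -4.55 on the 9-cisRA arrays and -4.54, -4.55 and -4.97 on the combined arrays, against -5.15, -4.46, -4.38 and -5.85 on the control arrays. Every mitotane array lay above every combined array, as for 4.5% of all transcripts, and above every control array, as for 3.56%. The log2 change was 1.09 ± 0.27 (SE) for mitotane against control, or 0.80 ± 0.20 without control replicate 4 (adjusted p = 0.713 and adjusted p = 0.616, limma). With normexp background correction at an offset of 50 and quantile normalisation it was 0.12 ± 0.05 (SE). An offset of 50 intensity units narrows the log2 scale of a probe as dim as PER3, so the sizes cannot be compared directly. For combined against mitotane the log2 change was -0.82 ± 0.30 (adjusted p = 0.95, limma), with -0.74, -1.02 and -0.81 within slides. A second PER3 probe gave -0.81. Under the normexp setting the combined against mitotane value of the first probe was -0.10 ± 0.05 (SE).

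PER1 had its lower means in the groups given 9-cisRA. Its signals were 1.26, 0.80, 1.47 and 0.61 on the mitotane arrays, 0.68, 0.75, 0.62 and 0.58 on the 9-cisRA arrays and 0.74, 0.20 and 0.59 on the combined arrays, against 1.19, 1.32, 1.08 and 0.62 on the control arrays. The ranges overlapped through replicate 4 of mitotane and of control. The log2 change was -0.02 ± 0.21 (SE) for mitotane (adjusted p = 0.975, limma), -0.40 ± 0.21 for 9-cisRA and -0.54 ± 0.22 for combined treatment (adjusted p = 0.314, limma), each against control. Combined minus mitotane was -0.52 ± 0.22 (adjusted p = 1, limma), with a 95% confidence interval of -1.0 to -0.05. Within slides the PER1 difference was -0.52 on slide 1, -0.59 on slide 2 and only -0.02 on slide 4.

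CRY1, the cryptochrome that partners the PER proteins in repression, followed a like order. It read -1.59, -1.25, -1.43 and -1.40 on the mitotane arrays, -2.40, -1.49, -2.37 and -2.0 on the 9-cisRA arrays and -2.19, -2.34 and -1.97 on the combined arrays, against -1.65, -1.42, -1.30 and -2.61 on the control arrays. Mitotane arrays and the first 3 controls shared a narrow range, above all combined arrays, while control replicate 4 read lowest of all 15. Without that array, 8.87% of all transcripts had every combined array below every control array. For combined below mitotane the share was 4.5%. The log2 change for combined against mitotane was -0.75 ± 0.29 (SE), a 1.68-fold lower level (adjusted p = 0.95, limma), and it was negative on each of 3 slides. Against control it was 0.33 ± 0.27 for mitotane (adjusted p = 0.715, limma), -0.32 ± 0.27 for 9-cisRA and -0.42 ± 0.29 for combined treatment (adjusted p = 0.53, limma). Without control replicate 4 these were 0.04, -0.61 and -0.71, so the first loses most of its size and the others gain.

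The nuclear receptors NR1D1 and NR1D2 showed no difference that passed the test. NR1D1 read -1.84, -1.75, -1.29 and -2.53 on the mitotane arrays, -1.28, -2.0, -1.67 and -1.43 on the 9-cisRA arrays and -1.50, -1.57 and -1.28 on the combined arrays, against -2.23, -1.71, -1.94 and -0.91 on the control arrays. All groups overlapped with control, for combined through control replicate 4: without it every combined array lay above every control array, as 20.2% of all transcripts did, at a log2 change of 0.51 against 0.25 with it. NR1D1 was the only one of the 9 genes with a positive log2 change for combined against mitotane, 0.40 ± 0.31 (SE; adjusted p = 1, limma), seen on 3 of 3 slides. NR1D2 had a wide spread within groups: 0.55, -1.04, -0.49 and 0.43 on the mitotane arrays, -0.41, -0.68, 0.84 and 0.76 on the 9-cisRA arrays and -0.31, -0.51 and -0.46 on the combined arrays, against -0.00, 0.92, 0.13 and 0.52 on the control arrays. The combined arrays lay below all control arrays, which held for 2.52% of all transcripts, at a log2 change of -0.82 ± 0.43 (adjusted p = 0.411, limma). A second NR1D2 probe gave -0.24 with overlap. Without control replicate 4 that probe gave -0.53 with no overlap, where 8.87% of all transcripts were lower in this way. Both NR1D2 probes went together at r = 0.893 over the 14 arrays without control replicate 4, and at r = 0.531 over all 15.

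Combined and mitotane tumours differed in one direction for most of the genes, without any of them passing the test. For combined against mitotane, 8 of 9 genes had a negative log2 change, with a median of -0.52 over the 9 and 0.01 over all 20216 transcripts. Of all transcripts, 52% had a positive log2 change. Over all transcripts the 5th percentile was -0.44 and the 95th 0.42, and TEF, PER1, PER2, PER3 and CRY1 lay below that span. No gene passed the adjusted test, nor did any other transcript (0%, limma). At an unadjusted p under 0.05, 4 of the 9 (PER1, PER2, PER3 and CRY1) were lower and 0 higher, where 1.8% of all transcripts were lower and 2.95% higher. Without control replicate 4, which enters here only through the shared spread, it was 6 of 9 lower, with TEF and DBP added, beside 5.04% of all transcripts. Without combined replicate 2 or without combined replicate 4 the count was 2, and with the slide as a block it was 3, PER1 being lost. With the probes of a gene averaged the count was 3 as well, PER2 being lost at a log2 change of -0.37. Quantile normalisation also gave 3, PER3 being lost. TEF, PER2, PER3 and CRY1 had no combined array as high as any mitotane array, where 4.5% of all transcripts were lower without overlap. In the authors' value table, with combined replicate 3 included, the same 4 genes had no overlap over 4 against 4 arrays, beside 2.7% of all transcripts. Its centred PER2 value on combined replicate 3 was -0.57, and the mitotane arrays lay between 0.45 and 0.65. PER3 is among those counted although it passed the filter only through the mitotane and 9-cisRA arrays, where it is highest. The genes were listed with results of these arrays known, and several belong to one loop, so the counts describe the list and are not separate results.

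**Figure D2:**
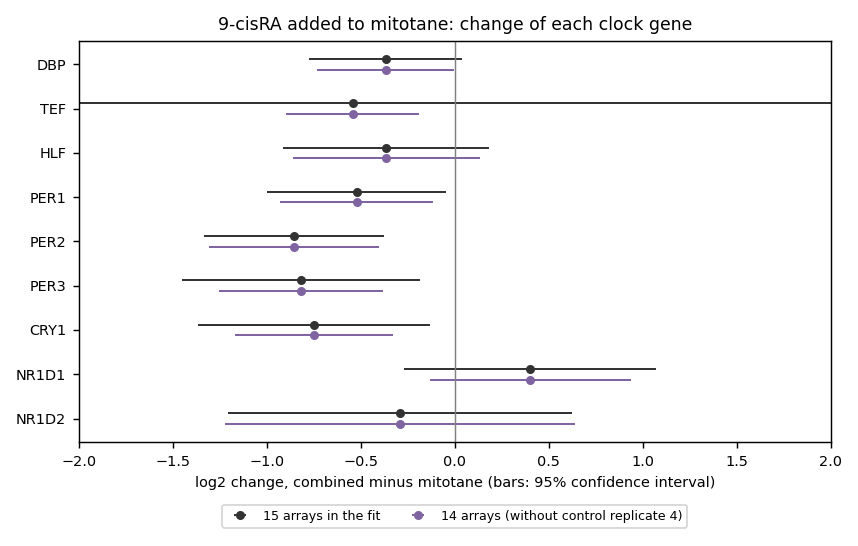
Log2 change of each clock gene, combined minus mitotane (x axis), with its 95% confidence interval, from the fit on 15 arrays (dark) and on the 14 arrays without control replicate 4 (purple). The TEF bar of the 15-array fit runs past the axis, from -4.68 to 3.59. Of the 9 point estimates 8 lie left of 0, with PER2 at -0.85 lowest and NR1D1 at 0.40 on the right.

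Ordered by group means without control replicate 4, mitotane stood highest for TEF, PER2, PER3 and CRY1 (4 of 9 genes, beside 26% of all transcripts) and combined lowest for PER1, PER2, PER3, CRY1 and NR1D2 (5 of 9, beside 24.4%). With all 15 arrays mitotane stood highest for 3 genes (21.4% of all transcripts) and combined lowest for 5 (22%), with TEF in the place of PER3. For mitotane against control, 5 of 9 genes were positive, with a median of 0.33 beside 0.09 over all transcripts, of which 61.5% were positive. The adjusted test was passed by 0 (0% of all transcripts, limma). Among the 8 genes other than DBP, 2 (PER2 and PER3) had an unadjusted p under 0.05 upward, beside 5.12% of all transcripts. The same 2 genes had no overlap with control, beside 3.56% of all transcripts, and PER3 entered only through its mitotane and 9-cisRA arrays. Without control replicate 4 the count was 4 of 8, with TEF and HLF added, beside 5.37% of all transcripts, and without control replicate 1 it was 1, beside 7.95%. With the probes of a gene averaged it was 1 as well. For combined against control, 4 of 9 were positive, with a median of -0.28 beside 0.09 over all transcripts, of which 58.7% were positive. Here 0 passed (0%, limma). PER1 alone of 8 had an unadjusted p under 0.05, beside 2.21% of transcripts that were lower. Without control replicate 4, PER1 and CRY1 did, beside 5.13%, and without combined replicate 2 or without control replicate 2 the count was 0. Without control replicate 1 the only gene was PER2 in place of PER1, beside 3.48%. With only the 2 groups fitted it was NR1D2, beside 0.757%. With limma's array weights, which give control replicate 4 a weight of 0.0351 and control replicate 2 a weight of 8.81, PER1, PER2, CRY1 and NR1D2 passed, but so did 5788 of all transcripts. For combined against 9-cisRA, 8 of 9 were negative, with a median of -0.30 beside 0.06 over all transcripts, of which 59.4% were positive. Again 0 passed (0%, limma). HLF alone of 8 had an unadjusted p under 0.05 downward, beside 2.04% of transcripts. That count was 0 in 10 of the 15 fits that left out 1 array, with the slide as a block and with no filter on dim probes; each of the 3 combined arrays was among those whose loss gave 0.

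9-cisRA against control and combined against mitotane are the effects of 9-cisRA without and with mitotane, and they share no array. Without control replicate 4, the PAR bZIP genes and PER3 had positive values for 9-cisRA alone (DBP 0.66, TEF 0.24, HLF 0.70, PER3 0.35) and negative values when it was added to mitotane (DBP -0.37, TEF -0.54, HLF -0.36, PER3 -0.82). For TEF, 9-cisRA replicate 1 lay at -2.05, apart from -2.52 to -2.49 on the other 9-cisRA arrays. PER1 and CRY1 were negative both times, at -0.54 and -0.61 alone and at -0.52 and -0.75 when added. NR1D2 was negative both times too, at -0.22 and -0.29, and NR1D1 positive, at 0.36 and 0.40. PER2 was near its control level for 9-cisRA alone, at -0.06, and at -0.85 when added. With control replicate 4 the values for 9-cisRA alone were 0.56 for HLF, 0.64 for PER3, -0.40 for PER1, -0.32 for CRY1, 0.10 for NR1D1, -0.26 for NR1D2 and 0.75 for DBP. TEF was then at -2.48, on the same side as its value when added, and PER2 at 0.01, on the opposite side. The values for 9-cisRA alone belong to the contrast that chose the list and carry no test. A test of the difference between both effects would draw on the arrays that chose the list, so none is given.

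**Figure D3:**
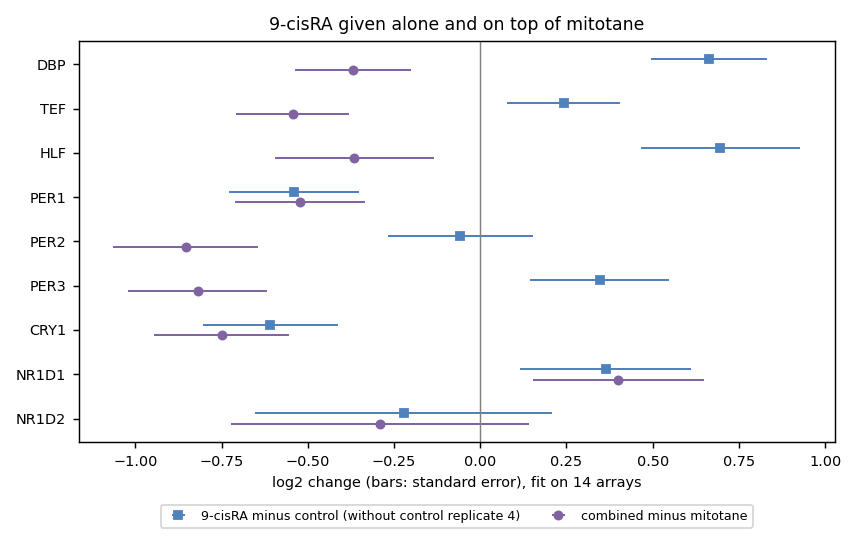
Log2 change of each clock gene for 9-cisRA minus control (squares) and for combined minus mitotane (circles), with the standard error, both from the fit on 14 arrays without control replicate 4. DBP, TEF, HLF and PER3 lie on opposite sides of 0 in both comparisons, and PER1, PER2, CRY1, NR1D1 and NR1D2 on the same side, PER2 with a value of -0.06 for 9-cisRA alone.

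From array to array, HLF and PER3 had the highest correlations with DBP among the 8 other genes. Over the 14 arrays without control replicate 4, DBP correlated with HLF at Pearson r = 0.771 and Spearman rho = 0.754, and with PER3 at r = 0.665 and rho = 0.653. Because 7 of these arrays chose DBP and the list was drawn up with its results known, the 8 relations are given as a description, with no p. With the other 6 genes r ran from -0.07 for CRY1 to 0.57 for TEF, with PER2 at 0.45, NR1D1 at 0.31 and PER1 and NR1D2 each at -0.02. The median r of DBP over all other transcripts was 0.02, with a 5th percentile of -0.42 and a 95th of 0.50.

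These relations follow the groups in part. With each group centred on its mean, r was 0.501 for HLF, 0.480 for PER2, 0.478 for PER3, 0.455 for PER1 and 0.416 for NR1D1, and the 95th percentile over all transcripts was 0.491, so that PER3 lay within the general span and no longer above PER2. A slide holds too few arrays for a value of its own, and with slides centred on their means r was 0.807 for HLF and 0.673 for PER3. Without the 2 arrays farthest from the median of DBP, control replicates 1 and 3, r was 0.648 for HLF and 0.579 for PER3. Over all 15 arrays r was 0.608 for HLF and 0.764 for PER3, and TEF turned to -0.45 through its spot on control replicate 4. Of transcripts outside the list, NM_006341 and NR_026852 were most like DBP over the 14 arrays, at r = 0.897 and r = 0.872, and with control replicate 4 included their r was 0.565 and -0.285.

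**Figure D4:**
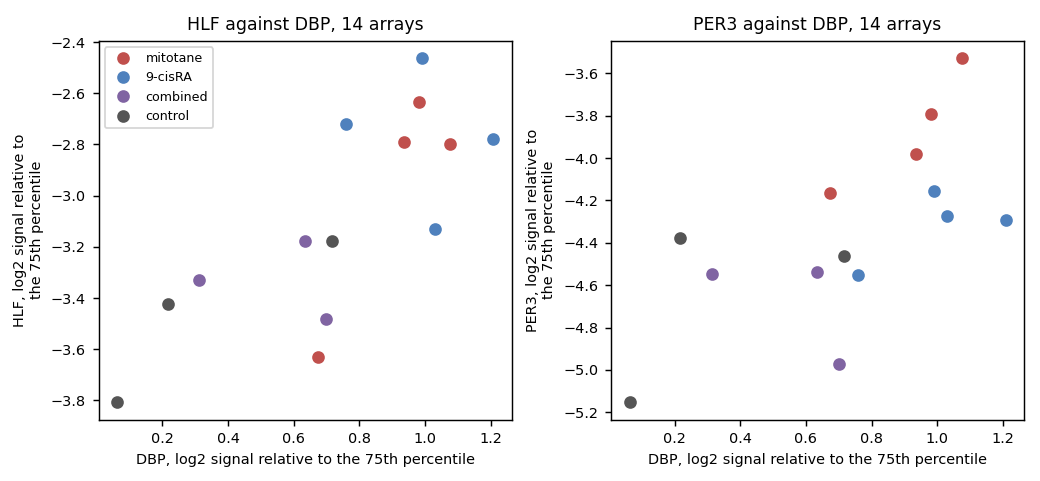
Log2 signal of HLF (left) and PER3 (right) against that of DBP, on the 14 arrays without control replicate 4, coloured by group. Mitotane and 9-cisRA arrays lie mostly at the upper right and control replicate 1 at the lower left; r is 0.771 for HLF and 0.665 for PER3.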

How the data were processed

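Labels and headers describe 1-colour Agilent arrays of a human design. The deposited scanner files hold an intensity per spot, from which background and a spatial trend were subtracted per the file headers (Agilent Feature Extraction 11.0.1 per the submitters' processing notes, 11.0.1.1 per the file headers). The authors' deposited value table holds log2 values centred per probe; the sources used here do not give its making. Its columns followed the scanner values of the members at r of 0.997 or more. The spots behind its scaling stay unknown.

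Log2 processed signal minus the 75th percentile of 43118 non-control spots was used, outlier spots left out, with the brightest probe per identifier. To be tested, a transcript had to exceed background clearly on all arrays of 1 or more groups. All 4 groups entered one limma fit (limma 3.58.1, R 4.3.3), two-sided, Benjamini-Hochberg adjusted over 20216 transcripts, at an adjusted p of 0.05; it was tested on simulated data. Correlations were computed with numpy 2.4.6; the planned permutation tests of them are not given, since the arrays also chose the list. The number of arrays limits precision.

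Members and lists were chosen with earlier results of these data known. Named genes are all members with a probe, plus the 2 transcripts most like DBP. Other clock genes and cell markers, listed by symbol, could not be looked up: the files hold accessions, and 0 of 29094 identifiers matched the mouse table at hand. No sequence is shown, since none of these human genes was in the reference. The planned normexp alternative used the median spot signal in place of the mean, which the files lack.

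Slide pairs arrays across groups, per the labels. Deviations from group means correlated at -0.27 to 0.37 over 21 same-slide pairs, with a median of 0.01. Alternatives covered normalisation, filter, slide block, array weights, probe choice, groups fitted, the value table and each array left out.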

Additional observations from a re-analysis of the deposited data

Results flagged for a closer look

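Among 27 sets of 4 arrays (9 genes in mitotane, 9-cisRA and control), 3 had an array whose distance to its neighbour was large relative to the range of the group. Chance marks about 1 in 20 such sets, or 1.35 here, and the combined group with 3 arrays was not examined. The TEF signal of control replicate 4 was 8.26, against -2.99 to -2.36 on the other controls. TEF on 9-cisRA replicate 1 was -2.05, against -2.52 to -2.49 on the other 9-cisRA arrays. HLF on mitotane replicate 4 was -3.63, against -2.80 to -2.64 on the other mitotane arrays. The part of each array in these values was not tested.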

How the results depend on the processing

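Counts of transcripts past the adjusted test were 0 in all 5 comparisons and stayed 0 under most settings. With array weights they were 3 for mitotane, 4 for 9-cisRA and 5788 for combined against control, 103 for combined against mitotane and 2003 for combined against 9-cisRA. Combined against mitotane also gave 2 with normexp, 1 in the authors' table when control replicate 4 is dropped, and 0 to 1 with 1 array left out (1 without mitotane replicate 2). With array weights, PER2 (adjusted p = 0.0411) and CRY1 (adjusted p = 0.0398) passed for combined against mitotane. The replicate block (slide) changed no adjusted call, and its DBP value there was -0.35; at an unadjusted p under 0.05 it left 3 genes in place of 4 for combined against mitotane (PER1 lost) and 0 in place of 1 for combined against 9-cisRA. The correlations of DBP kept their sign for HLF and PER3.

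Signs turned for values that did not pass; the cause was not tested. For mitotane against control, TEF was 0.52 with array weights and 0.59 in the authors' table without control replicate 4, and ran from -3.13 to 0.61 with 1 array left out (0.61 without control replicate 4). NR1D1 there was 0.088 in that table and ran from -0.34 to 0.11 (positive without mitotane replicate 4 or control replicate 4), and PER1 from -0.17 to 0.12. For combined against control, DBP was -0.068 and TEF 0.042 with array weights, and TEF was 0.074 in that table and ran from -3.68 to 0.071. HLF was -0.0067 with normexp, -0.050 with the percentile of probes above background and -0.082 in the authors' table, and ran from -0.15 to 0.14. PER3 was -0.025 with array weights and -0.022 in the table without control replicate 4, and ran from -0.021 (without that array) to 0.47; PER2 was 0.40 with probes averaged. For combined against 9-cisRA, PER2 was 0.24 with probes averaged, PER1 ran from -0.26 to 0.0059 (without combined replicate 2) and CRY1 from -0.21 to 0.09 (without 9-cisRA replicate 2). Signal near background limits PER3.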
